A study of Mus musculus with 4 samples.

Results

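The stretch of mouse chromosome X from 110 to 140 Mb (build mm10) was described by its 100 kb bins. Of the 300 bins listed there, 266 had data in all 4 matrices and 34 did not, out of 1461 bins with data among the 1707 of the chromosome. The longest run without data spanned 3 Mb (chrX:123100001-126100000). At 250 kb, which served as a check, 108 of 120 bins had data. The cells were female tail tip fibroblasts (TTF) of hybrid animals that carry 1 mus and 1 cas copy of the chromosome. They were either wild type (WT, 2 samples) or Sirt7-/- (KO, 2 samples), lacking the nuclear deacylase SIRT7. Folding was measured by Hi-C, with fixation in 2% formaldehyde, cutting with HindIII, and ligation of DNA ends that lie close together in the nucleus. Since replicates were pooled before deposit, each genotype and copy has 1 matrix per bin size. No difference below therefore has a replicate check, an error or a test, and each describes these matrices only. Which copy was inactive is not stated in the labels, and the matrices carry no expression data to check the cell type.

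Each value is the correlation of the contacts of one bin with those of another, so it is high where 2 bins contact the same parts of the chromosome. On an active chromosome, gene-rich A compartments and gene-poor B compartments each share contacts with their own kind, which gives such maps a checkered pattern. The inactive X chromosome of female cells lacks most of that pattern and folds instead into a pair of large domains that meet at the Dxz4 macrosatellite, on the centromere side of the stretch described here. CG-rich promoters belong mostly to broadly expressed genes, and CG-poor promoters mostly to tissue-specific ones.

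The stretch holds 121 protein-coding genes by their midpoints in RefSeq, 4.03 per Mb against 6.01 per Mb on the rest of the chromosome, with 18 long noncoding RNAs, 6 miRNAs and 159 pseudogenes. The genes are unevenly placed about the bin at 128.5 Mb, where the cas matrix of WT split most strongly, as described below. The 153 bins before it, called the left part, hold 36 protein-coding genes (1.95 per Mb) and 86 pseudogenes. The 113 bins from it onwards, the right part, hold 85 protein-coding genes (7.39 per Mb). RefSeq promoters of the same build, 250 bases before to 50 after a gene's start, were given for 28 genes of the left part and 79 of the right part. The dinucleotide CG occurred at a median of 3.5 per promoter over 30 promoters on the left and 9.5 over 92 on the right, against 8 over the 960 of chromosome X. At least 10 CG were found in 23.3% of promoters on the left, 50.0% on the right and 44.4% on the chromosome. The HindIII site AAGCTT, which reads the same on both strands, was found in 10.0% of promoters on the left, 5.43% on the right and 9.48% on the chromosome.

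These 4 promoters are shown because their genes mark the places where the cas score changes along the stretch or between genotypes, with every CG in capitals. Chm (chrX:113185466-113185765, minus strand, 9 CG) sits in the lone bin of the left part whose score was positive in both genotypes. The gene 4932411N23Rik (chrX:126833955-126834254, minus strand, 1 CG) has the nearest listed promoter to the left of the split. Diaph2 (chrX:129749492-129749791, plus strand, 20 CG) has the nearest to its right. Gprasp1 (chrX:135742442-135742741, plus strand, 25 CG) lies in bins whose score changed sign between genotypes. The genes were chosen after their values were seen.
Chm: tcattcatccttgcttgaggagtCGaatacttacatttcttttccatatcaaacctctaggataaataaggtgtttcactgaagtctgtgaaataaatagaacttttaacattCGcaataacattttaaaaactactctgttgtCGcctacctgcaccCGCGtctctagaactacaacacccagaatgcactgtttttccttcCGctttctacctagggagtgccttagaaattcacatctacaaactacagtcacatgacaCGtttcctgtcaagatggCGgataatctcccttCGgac
4932411N23Rik: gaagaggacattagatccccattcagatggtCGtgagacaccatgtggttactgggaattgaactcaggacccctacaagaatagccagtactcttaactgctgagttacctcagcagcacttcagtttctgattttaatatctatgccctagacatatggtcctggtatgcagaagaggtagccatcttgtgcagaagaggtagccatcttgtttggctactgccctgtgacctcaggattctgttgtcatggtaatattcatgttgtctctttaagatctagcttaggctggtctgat
Diaph2: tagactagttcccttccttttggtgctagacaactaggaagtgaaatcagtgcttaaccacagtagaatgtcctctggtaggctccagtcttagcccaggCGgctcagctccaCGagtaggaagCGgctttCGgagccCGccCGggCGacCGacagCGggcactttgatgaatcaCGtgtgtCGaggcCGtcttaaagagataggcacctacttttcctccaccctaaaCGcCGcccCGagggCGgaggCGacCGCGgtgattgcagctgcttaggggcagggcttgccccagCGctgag
Gprasp1: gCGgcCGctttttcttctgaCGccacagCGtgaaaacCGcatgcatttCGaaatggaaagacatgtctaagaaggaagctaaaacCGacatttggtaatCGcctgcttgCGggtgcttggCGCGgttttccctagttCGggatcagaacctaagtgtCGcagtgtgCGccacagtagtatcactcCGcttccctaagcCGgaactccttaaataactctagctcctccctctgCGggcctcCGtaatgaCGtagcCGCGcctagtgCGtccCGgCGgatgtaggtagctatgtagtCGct

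The first comparison asked where the stretch divides and whether that differed by copy and genotype. For each of 170 possible splits, the split contrast was computed by averaging the correlations of same-side pairs and subtracting the average of pairs across the split at matched distances, all at least 2 Mb apart. On cas the contrast was highest in WT at 128.5 Mb, 0.0331, from a same-side mean of 0.0492 and a mean across of 0.0161. In KO it was highest 1 bin away, at 128.4 Mb, with 0.0295, and was 0.0293 at 128.5 Mb. The KO to WT ratio at 128.5 Mb was 0.885, and 0.842 at 250 kb, where both genotypes had their highest contrast at the same bin (0.148 and 0.125). Leaving out bins by a cut at the lowest 10% of row SD turned the 100 kb ratio to 1.06. This cut kept only 197 of the 266 bins of the stretch, 120 of 153 on the left and 77 of 113 on the right. The direction of the genotype difference thus depended on which bins were used.

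The cas profile held a plateau and another peak rather than a single sharp edge. From 128.0 to 129.2 Mb the contrast stayed between 0.0304 and 0.0331 in WT and between 0.0274 and 0.0295 in KO. It fell to 0.0120 in WT and 0.00822 in KO at 130.5 Mb and rose again to 0.0304 and 0.0250 at 132.7 Mb. The other peak reached 91.7% of the highest contrast in WT and 84.8% in KO, and 88.5% and 79.3% at 250 kb. Which peak was higher depended on the bins used. Without the weakest bins the highest cas contrast lay at 133.0 Mb in WT and 132.7 Mb in KO, and without the bins from 110 to 120 Mb at 132.8 and 133.0 Mb. Without 110 to 120 Mb the contrast at 128.5 Mb was -0.00340 in WT and -0.00335 in KO, so the division there rests on the far left end of the stretch.

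On mus the same place was no split. Pairs across 128.5 Mb were more correlated than pairs on one side, with a contrast of -0.00673 in WT and -0.00813 in KO (ranks 116 and 99 of 170), and of -0.0170 and -0.0246 at 250 kb. The mus contrast was highest at 134.8 Mb in WT, 0.0102, and at 134.7 Mb in KO, 0.0131. At 134.8 Mb the KO value was 0.0127, or 1.25 times that of WT, and the 250 kb ratio was 1.24. At that bin the cas contrast went the other way, from 0.0101 in WT to 0.00458 in KO. These mus contrasts are small, and their position is known only to a few bins. The candidate splits end 5 Mb from either end of the stretch, close to this mus peak.

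Measured against only the 10 Mb on each side, the division at 128.5 Mb on cas had a local contrast of 0.0201 in WT, the highest of the stretch and rank 104 of the 1183 bins of the chromosome that could be measured so. In KO it was 0.0190, rank 77, and the highest of the stretch was 0.0193 at 128.4 Mb, rank 75. On mus the highest local contrast of the stretch lay at 111.5 Mb in WT, 0.0182 (rank 50), and at 111.4 Mb in KO, 0.0164 (rank 42). The top bins of the mus chromosome were at 75.7 Mb in WT (0.0463) and 75.4 Mb in KO (0.0321), the first of them holding the Dxz4 host transcript 4933407K13Rik (75725458 to 75764699). The 250 kb matrices also put the highest local mus contrast of the stretch at 111.5 Mb in both genotypes, with ranks 28 and 19 of 477. This local measure was chosen after the data were seen.

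The next comparison asked how tightly each part holds together, over pairs from 2 to 20 Mb apart. On cas, pairs within the left part averaged 0.0546 in WT and 0.0494 in KO, where pairs outside the stretch at the same distances averaged 0.0123 and 0.0105. Pairs within the right part had only 0.00710 and 0.00546, below the 0.0146 and 0.0126 outside. Pairs between the left and the right part had 0.0151 and 0.0138. The cas stretch is thus a coherent left part beside a right part whose bins correlate weakly with each other. Whether they shared less with each other than with the left part depended on distance. They did at 2 to 5 Mb and at 10 to 20 Mb. At 5 to 10 Mb the order was reversed, with 0.00694 within the right part and 0.00484 between the parts in WT, and 0.00564 and 0.00520 in KO. The highest mean of any pair of 5 Mb blocks on cas was within 115 to 120 Mb, 0.0679 in WT and 0.0594 in KO, and the lowest was within 130 to 135 Mb, -0.00855 and -0.0129.

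On mus the order was turned. Bins between 128.5 and 134.8 Mb averaged 0.0455 in WT and 0.0456 in KO among themselves, against 0.0301 and 0.0226 outside at the same distances. They also correlated with the left part, 0.0307 in WT and 0.0303 in KO (0.0168 and 0.0120 outside). Bins from 134.8 to 140 Mb correlated less with their neighbours. Their mean with the bins between 128.5 and 134.8 Mb was 0.0158 in WT and 0.0118 in KO, below the 0.0240 and 0.0173 outside, and their mean with the left part was 0.0115 and 0.00830. Pairs within the left part had 0.0209 in WT and 0.0196 in KO, beside 0.0230 and 0.0167 outside. The lowest mean within any 5 Mb block of mus was that of 110 to 115 Mb, 0.0125 and 0.00849, below the 0.0266 and 0.0187 within 135 to 140 Mb. On cas, KO moved the left part's correlations with these neighbours in opposite directions. They went from 0.0149 in WT to 0.0108 in KO with the bins between 128.5 and 134.8 Mb, and from 0.0155 to 0.0204 with the bins distal to 134.8 Mb, beside 0.0112 and 0.00987 outside at the distances of the latter. The block from 130 to 135 Mb, the lowest on cas, had the highest mean on mus, 0.0393 in WT and 0.0368 in KO.

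**Figure D1:**
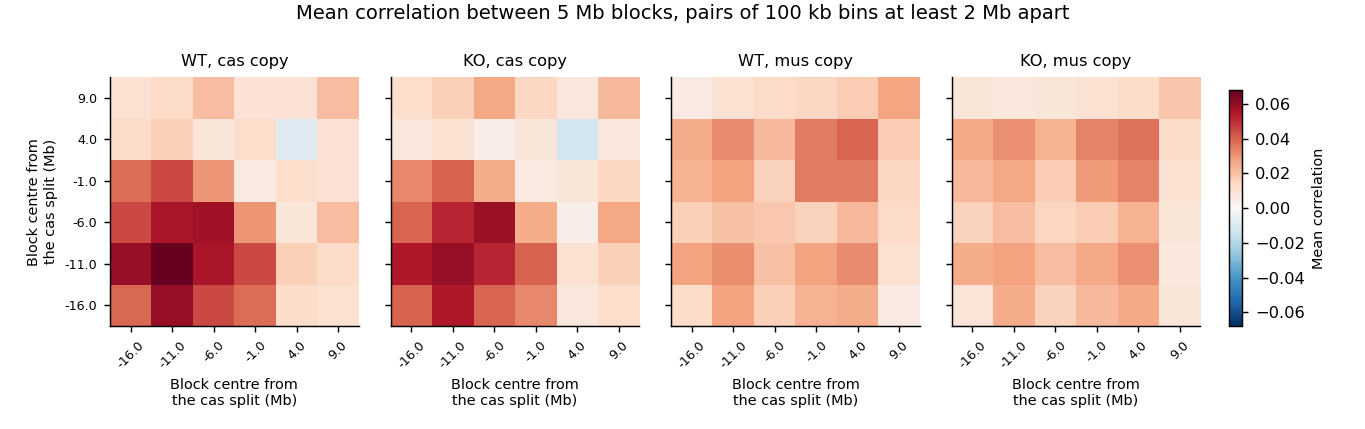
Mean correlation (colour scale) between the 6 blocks of 5 Mb of the stretch, over pairs of 100 kb bins at least 2 Mb apart, for each genotype and copy, with blocks placed by the distance of their centre from the cas split in Mb. The cas values are highest among the left blocks (0.0679 in WT at -11.0 Mb). They are lowest, below 0, within the block at 4.0 Mb (-0.00855 in WT), which has the highest value on mus (0.0393 in WT).

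The compartment score set each bin against classes defined outside the stretch. The bins outside were ranked by the leading principal component of the averaged cas matrices, and the 239 bins at its gene-rich end (301 protein-coding genes) and at its other end (54) formed class A and class B. A bin's score is its average correlation to class A less its average correlation to class B. On cas the left part scored -0.0966 in WT and -0.0818 in KO on average, close in sign and size to the B bins outside (-0.117 and -0.101). In both genotypes 151 of its 153 bins were negative. The right part averaged -0.0182 in WT and -0.0158 in KO, with 38 bins positive in both genotypes, 65 negative in both and 10 of unlike sign. Over all bins of the stretch the WT and KO cas scores correlated at 0.940 (0.948 outside). On mus the scores were much smaller, averaging -0.00160 in WT and 0.000750 in KO on the left and 0.00254 and 0.00245 on the right, and WT and KO correlated at 0.282 (0.470 outside). The sign changed between genotypes in 111 of the 266 bins on mus and in 11 on cas, beside 422 and 75 of the 1195 bins outside. The sign of a single mus bin thus often differed between the matrices, in the stretch as outside it. Because both classes were drawn from cas matrices, the score measures likeness to the cas pattern. The smaller mus scores therefore do not show that mus lacks compartments. No classes were drawn from the mus matrices.

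Along cas, the score passed from B-like to A-like in steps. The 5 bins before 128.5 Mb averaged -0.104 in WT and -0.0817 in KO. The next 8 bins, to 129.3 Mb, averaged -0.0527 in WT (-0.0805 to -0.0143) and -0.0425 in KO (-0.0592 to -0.0148). From 129.2 to 129.3 Mb the score changed sign in both genotypes, from -0.0143 to 0.0385 in WT and from -0.0148 to 0.0414 in KO. The 8 bins from 129.3 Mb averaged 0.0498 in WT (0.0356 to 0.0667) and 0.0437 in KO (0.0244 to 0.0606). These windows meet at the sign change and lie within runs of like sign, so their ranges could not overlap. The boundary bin at 128.5 Mb and its neighbours hold no protein-coding gene midpoint. On mus the same 8 bins averaged -0.000446 in WT and 0.00369 in KO.

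**Figure D2:**
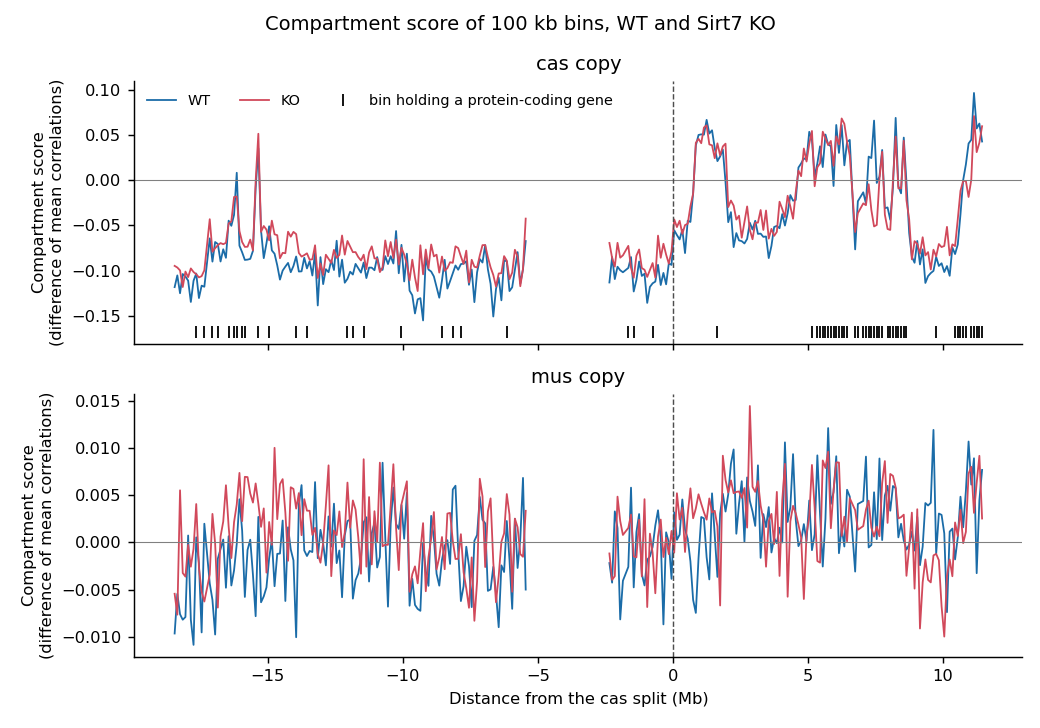
Compartment score of each 100 kb bin (vertical axis, difference of mean correlations) by distance from the cas split in Mb, for WT (blue) and KO (red), on cas above and mus below, with ticks for bins holding a protein-coding gene midpoint. On cas both genotypes lie below 0 over nearly all of the left part and alternate to the right, starting with positive bins 0.8 to 1.9 Mb from the split; the mus panel has a smaller scale, and its curves cross 0 throughout.

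Joining runs of like sign in both genotypes gave 7 stretches of 5 or more bins on cas, a division made after the scores were seen. Single bins of unlike sign between genotypes were passed over in the joining and left out of the means. The first 2 are B-like and cover most of the left part. They meet at 113.1 Mb in a single bin positive in both genotypes, 0.0352 in WT and 0.0514 in KO, that holds the midpoint of Chm (113040592 to 113185539). The bin of Apool and Satl1, at 112.3 Mb, was positive only in WT, with 0.00826 against -0.0179 in KO. Chm encodes a Rab escort protein, which helps to attach lipid anchors to Rab GTPases, and it is the choroideremia gene. At 250 kb its bin scored -0.00751 in WT and 0.0563 in KO, well above the B-like bins around it. The B-like stretch from 113.2 to 129.3 Mb has 130 bins and 24 protein-coding genes, and it averaged -0.0976 in WT and -0.0819 in KO.

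The A-like stretch nearest the split, from 129.3 to 130.4 Mb, holds the midpoint of 1 protein-coding gene, Diaph2 (129749668 to 130465834), which encodes a formin that builds unbranched actin filaments. Its 11 bins averaged 0.0436 in WT and 0.0414 in KO, and all were positive in both. The adjoining stretch from 130.5 to 133.1 Mb holds no protein-coding gene midpoint, and its 26 bins averaged -0.0527 and -0.0412. From 133.1 to 135.1 Mb, an interval with 26 protein-coding genes, 18 bins averaged 0.0351 and 0.0372. The bins at 133.7 and 134.4 Mb, of unlike sign between genotypes, were left out of these means. The latter bin holds Drp2 and Taf7l, which are among the 26 genes. This A-like stretch runs from Pcdh19, a cell adhesion protocadherin, through Tnmd, Cstf2, Btk and Gla to the Armcx cluster. From 137.1 to 139.2 Mb, 21 bins with 7 genes averaged -0.0825 and -0.0670, and from 139.5 to 140 Mb, 5 bins with 7 genes averaged 0.0608 and 0.0408. The 250 kb means had the same signs in both genotypes, for example 0.184 and 0.170 over the Diaph2 stretch and -0.204 and -0.165 over the gene-free one.

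Pairs of these stretches were then compared by correlations inside the region, entries that the score does not use. They are not independent of it, since bins alike toward class A or B tend to correlate with each other. The stretches were cut by cas score, so a sorting by sign on cas was largely set by that choice. On cas all 6 pairs of B-like stretches were more correlated than pairs outside at the same distances, with means from 0.0296 to 0.0507 in WT and from 0.0274 to 0.0483 in KO. None of the 12 pairs of unlike sign was above the outside mean in either genotype, and their medians were -0.0155 in WT and -0.0179 in KO. Of the 3 pairs of A-like stretches, 2 were above it. The Diaph2 stretch and the stretch from Pcdh19 to the Armcx genes were not, with -0.00260 in WT and -0.00154 in KO, although the Diaph2 stretch had 0.0220 and 0.0165 with the last stretch before 140 Mb. On mus no such sorting appeared, since pairs of unlike sign were above the outside mean in 9 of 12 cases in WT and 7 of 12 in KO. The highest mus pair joined the Diaph2 stretch to the gene-free one beside it, 0.0462 in WT and 0.0516 in KO, a pair that had 0.000964 and 0.000522 on cas.

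Bins with genes scored higher on cas in the right part. There the 43 bins with a protein-coding gene midpoint had a median cas score of 0.0186 in WT, and 27 were positive, against -0.0523 and 18 positive among the 70 bins without one. In KO the medians were 0.00130 and -0.0417. On the left the medians in WT were -0.0904 for the 24 bins with a gene and -0.0990 for the 129 without. On mus the corresponding medians in WT lay between -0.00155 and 0.00294.

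Genotype differences were counted per bin, as KO minus WT score. On cas 130 of the 153 left bins (85.0%) and 61 of the 113 right bins were higher in KO, beside 60.1% of all bins of the chromosome. In the left part the change was toward 0, with a KO to WT ratio of the mean of 0.846, or 0.863 at 250 kb, where 58 of 62 bins were higher, beside 61.2% of all 250 kb bins. The B bins outside the stretch moved the same way, with 213 of 239 (89.1%) higher in KO and a ratio of 0.865. The SD of all entries on cas also fell, from 0.0418 to 0.0394. With each matrix divided by its SD, the ratio of the left part was 0.899 and 73.2% of its bins were higher in KO. A difference was called when it exceeded 1 SD of the differences outside the stretch, 0.0245 on cas and 0.00631 on mus. On cas 36 left bins were called higher and 1 lower, and 16 right bins higher and 8 lower, where the chromosome had 16.2% and 9.51%. On mus 108 of 153 left bins (70.6%) and 57 of 113 right bins were higher in KO, beside 50.2% of all bins. Called on mus were 32 left bins higher and 7 lower, and 11 right bins in each direction, where the chromosome had 16.8% higher and 13.8% lower. At 250 kb the mus count on the left was 37 of 62 (59.7%), beside 51.0% of all 250 kb bins, and with classes by gene number it was 52.9%, so the mus excess depends on the settings.

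The most changed bins with genes on cas lay in the cluster of Gprasp and Arxes genes. The bin of Arxes2, an adipocyte-expressed gene, scored 0.0659 in WT and -0.0510 in KO, and the difference of -0.117 was the second lowest of the 1461 bins. The bin beside it, with Gprasp2 and Bhlhb9, scored 0.0245 and -0.0329 (rank 12 from the lowest). The products of Gprasp genes bind G protein-coupled receptors and direct their sorting after uptake. The bin of Gprasp1 and Armcx5 scored 0.0261 and -0.00436, and that of Arxes1 and Bex2 -0.00301 and -0.0494. In the Arxes2 bin the mean correlation with A bins went from 0.0292 in WT to -0.0243 in KO, and that with B bins from -0.0367 to 0.0267. The 250 kb bin that covers Gprasp2, Bhlhb9 and Arxes2 went from 0.139 to -0.172, again the second lowest, of 588. The row SD of the Arxes2 bin was 0.0361 in WT, above 40.0% of bins, and 0.0347 in KO, above 39.6%, so it was not among the weakest rows in either genotype. The row SD of the Gprasp1 and Armcx5 bin was above that of 8.69% of bins in WT and 8.56% in KO. For Gprasp2 and Bhlhb9 these shares were 13.8% and 16.1%, and for Arxes1 and Bex2 9.99% and 42.2%. On mus the Arxes2 bin scored 0.00530 and 0.000608.

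Only bins that hold a gene midpoint and moved in the same direction in the 250 kb matrices are ranked next. The highest in KO relative to WT on cas were those of Armcx2 (0.0165 to 0.0623), of Cpxcr1 in the left part (-0.109 to -0.0671) and of Cstf2 (0.0145 to 0.0536). Cstf2 encodes a subunit of the complex that cleaves mRNA 3′ ends, and the Armcx genes encode armadillo-repeat proteins, several of them on mitochondria. On mus the highest were those of Klhl4 (-0.0101 to 0.00357), of Zfp711 and Pof1b (-0.00578 to 0.00694) and again of Cstf2 (-0.00256 to 0.00868). The lowest of these bins on mus were those of Tnmd and Tspan6 (0.00921 to -0.00198), of Cylc1 (0.00197 to -0.00627) and of Nxf2 and Zmat1 (0.00557 to 0.000105). Bins without a gene midpoint had larger increases, up to 0.0584 on cas, at 119.1 Mb, and 0.0147 on mus, at 113.7 Mb.

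**Figure D3:**
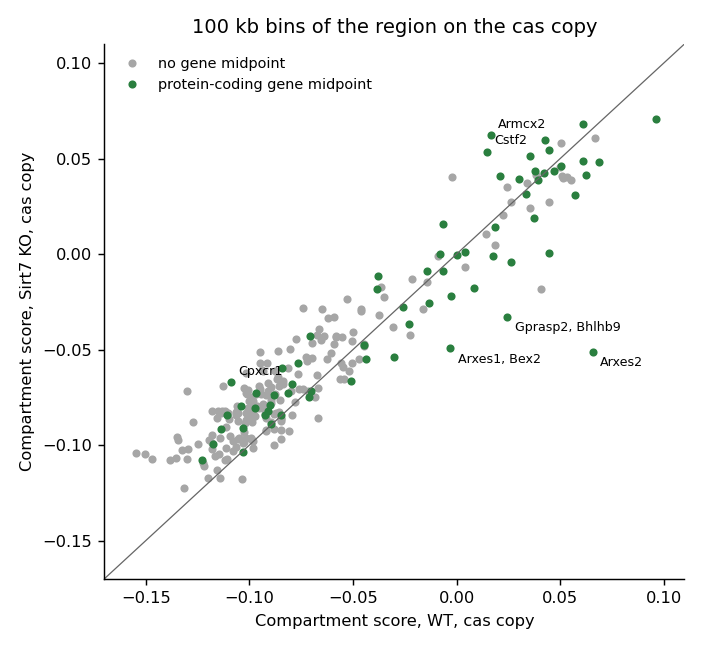
Cas compartment score of the 266 bins of the stretch in WT (horizontal axis) and KO (vertical axis), green where a bin holds a protein-coding gene midpoint, with the line of equality and names at the 3 gene-holding bins highest and the 3 lowest by KO minus WT. Most bins at the negative end lie above the line (130 of 153 left bins), and the Arxes2 bin lies farthest below it (0.0659 in WT, -0.0510 in KO).

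Gene lists were then read on cas, beside a median over all bins of -0.0486 in WT and -0.0444 in KO. The left list and the list around and right of the split were defined by position. Their order on cas therefore restates the division above and adds no support for it. Of all 1461 bins, 511 were positive on cas in WT and 501 in KO, to be set beside the counts below. The 12 genes of the gene-poor left list fell in 10 bins with a median of -0.0862 in WT and -0.0704 in KO, from Pabpc5, a poly(A)-binding protein gene (-0.111 and -0.0843), to Chm. They were higher in KO in 7 of 10 bins on cas and in 10 of 10 on mus, beside 60.1% and 50.2% of all bins. At 250 kb they were higher in 10 of 10 on cas and 7 of 10 on mus, beside 61.2% and 51.0% of all 250 kb bins. The 9 genes around and right of the split were positive in all 6 of their bins in both genotypes (medians 0.0293 and 0.0435), from Cstf2 to the bin of Nox1, an NADPH oxidase gene, and Xkrx (0.0505 and 0.0462). The 10 housekeeping and disease genes were positive in 5 of 6 bins (medians 0.0386 and 0.0415). Their highest bin was that of Morf4l2, a chromatin protein gene (0.0689 and 0.0483).

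The 9 Armcx and Gprasp genes were positive in 5 of 5 bins in WT and 3 of 5 in KO, with Armcx1, Armcx3 and Armcx6 in the highest bin (0.0610 and 0.0683). The 11 Bex and Tceal genes, which encode small proteins, spread over 6 bins with medians near 0 (0.000521 and 0.000737), from Tceal6 (-0.0764 and -0.0572) to Tceal1 (0.0689 and 0.0483), which shares its bin with Morf4l2. They were higher in KO in 2 of 6 bins on cas and 5 of 6 on mus, beside 60.1% and 50.2% of all bins. At 250 kb they were higher in none of 5 bins on cas and all 5 on mus, beside 61.2% and 51.0%. The 9 distal genes were positive in 4 of 8 bins in each genotype, with the lowest score at Il1rapl2 (-0.0846 and -0.0841), a relative of interleukin-1 receptor subunits with a gene body of 1278 kb, and the highest at Rnf128, a membrane ubiquitin ligase gene (0.0964 and 0.0709).

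The last comparison asked what the stretch shares with the rest of the chromosome. On mus the right part correlated with the bins beyond 140 Mb at a mean of 0.0177 in WT and 0.00829 in KO, the latter being 0.469 times the former. Pairs outside at the same distances went from 0.00835 to 0.00645, a ratio of 0.773. At 250 kb the right part went from 0.0570 to 0.0351 (0.615), while pairs outside rose from 0.0337 to 0.0395. The decrease was seen for each 10 Mb block, from 0.0226 to 0.0135 for 140 to 150 Mb, from 0.0160 to 0.00753 for 150 to 160 Mb, and from 0.0155 to 0.00504 for 160 to 170 Mb. Pairs outside at the distances of these blocks went from 0.0193 to 0.0137, from 0.00884 to 0.00669 and from -0.000502 to 0.000635. With all bins beyond 140 Mb, the ratio was 0.499 between 128.5 and 134.8 Mb and 0.445 distal to 134.8 Mb, against 0.815 and 0.744 outside. With 140 to 150 Mb alone, the ratio for the bins between 128.5 and 134.8 Mb was 0.698, close to the 0.706 outside. Toward the other side, from Dxz4 to 110 Mb, the mus mean of the right part was -0.00309 in WT and 0.00264 in KO, against -0.00228 and 0.000448 outside at the same distances. The left part went from 0.00783 to 0.00578 with the bins beyond 140 Mb, from 0.00342 to 0.00290 with those from Dxz4 to 110 Mb, and from 0.00223 to 0.00524 with those left of Dxz4. The right part went from 0.00544 to 0.00746 with the bins left of Dxz4. Pairs outside at these distances to the bins left of Dxz4 rose as well. They went from -0.00104 to 0.00249 for the left part's distances and from 0.000368 to 0.00347 for the right part's.

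On cas the right part averaged 0.00637 in WT and 0.00499 in KO with the bins beyond 140 Mb, for a KO to WT ratio of 0.784 against 0.851 outside. At 250 kb this decrease was not seen, with 0.0285 in WT and 0.0287 in KO (1.01 against 0.946 outside). The cas left part correlated most with the blocks from 80 to 90 Mb (0.0522 in WT, 0.0436 in KO) and from 60 to 70 Mb (0.0465 and 0.0321). With 100 to 110 Mb, the adjoining block, it had -0.00496 in WT and -0.00275 in KO.

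**Figure D4:**
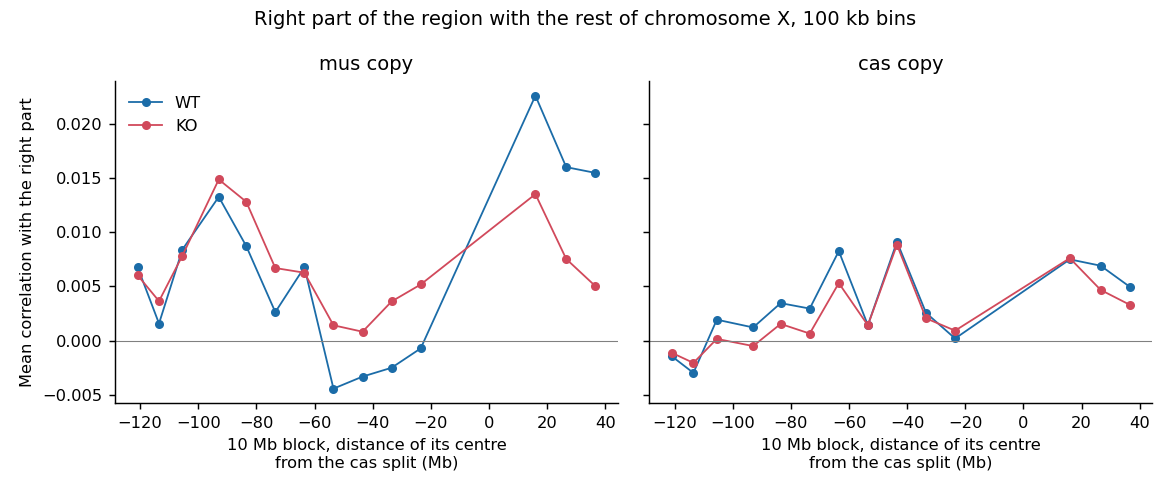
Mean correlation of the right part of the stretch (vertical axis) with each 10 Mb block of the rest of chromosome X, placed by the distance of the block's centre from the cas split in Mb, for WT (blue) and KO (red), on mus (left) and cas (right). On mus the 3 blocks to the right are lower in KO (0.0226 to 0.0135 in the nearest) and the 4 nearest blocks to the left are higher, while the cas curves differ little there.

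The pattern of single entries was shared between genotypes mostly on cas. Over pairs of bins of the stretch at least 2 Mb apart, WT and KO correlated at 0.520 on cas and 0.212 on mus, against 0.587 and 0.279 outside at up to 30 Mb. At 250 kb these were 0.875 and 0.527. The mus and cas matrices of a genotype correlated at 0.0834 in WT and 0.0487 in KO. Neighbouring bins of the stretch correlated less on mus (0.0446 in WT, 0.0398 in KO) than on cas (0.0694 and 0.0671). The sequencing depth of these matrices is not known, and whether this value follows depth was not tested. Within the WT cas matrix itself, correlations differed by part. Pairs 2 to 5 Mb apart averaged 0.0603 within the left part and 0.00683 within the right part. How far depth sets the lower likeness on mus was not tested.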

How the data were processed

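Hi-C of 4 female hybrid TTF samples, 2 per genotype, was analysed from 8 deposited matrices, 1 per genotype, copy and bin size (100 and 250 kb). The deposited score is the correlation of one bin's contacts with another's. Per the file headers, the authors pooled replicates, filtered reads and separated alleles beforehand. Bowtie2, cutadapt, Juicer, HOMER and mm10 are named in the submitters' processing notes, without versions. How contacts were normalized, how reads were assigned to alleles and how many there were is not given in the sources used here. The design text speaks of Xist binding, but labels and headers are those of Hi-C, which was taken as the assay.

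Bins that are an all-0 row in any matrix of a bin size were left out. Means used pairs at least 2 Mb apart, and "outside" means pairs of bins outside the stretch, weighted to the same distances. Splits lay at least 5 Mb from the ends of the stretch. Classes were 20% of the bins outside it. Genes were placed by midpoints from RefSeq (GRCm38.p6). GC content and HindIII sites per bin were planned, need the genome sequence and were not analysed here. Named genes are the highest and lowest of each list by WT cas score plus, per copy, those in the 3 gene-holding bins with the highest and the 3 with the lowest KO minus WT score, of bins with the same sign at 250 kb. The lowest bin of 1 list is not reported here. Other genes, the mus split, the runs of like sign, the local contrast and the promoters shown were chosen after values were seen. Members and lists were chosen with earlier results of these data known. With 1 matrix per genotype and copy, no test was run. Functions were tested on simulated matrices, in Python 3.11.15 with numpy 2.4.6 and pandas 2.3.3. Alternatives were the other bin size, pairs at least 5 Mb apart, division by the SD, omission of weak bins or 10 Mb blocks, other splits and classes, subtraction of the mean of each distance, and rank correlation.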

Additional observations from a re-analysis of the deposited data

Results flagged for a closer look

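The KO minus WT differences below went opposite ways on the mus and cas copies. None of these differences between copies was tested, since each genotype and copy has 1 matrix. At the mus split, 134.8 Mb, the contrast changed by 0.00257 on mus and -0.00554 on cas. The mean correlation of the right part with the bins left of Dxz4 changed by 0.00202 on mus and -0.00120 on cas, and with the bins from Dxz4 to 110 Mb by 0.00573 on mus and -0.000140 on cas. Pairs outside at the same distances moved in the same directions. For the first they went from 0.000368 to 0.00347 on mus and from -0.000155 to -0.000350 on cas. For the second they went from -0.00228 to 0.000448 on mus and from 0.00559 to 0.00553 on cas. The mean score of the Diaph2 stretch changed by 0.00297 on mus and -0.00227 on cas. That of 137.1 to 139.2 Mb, with Il1rapl2, changed by -0.00369 on mus and 0.0156 on cas. That of 139.5 to 140 Mb, with Rnf128, changed by 0.00105 on mus and -0.0200 on cas.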

How the results depend on the processing

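Of 158 values recomputed under an alternative, 140 kept their direction and stayed within 1.5 times of the value reported, or within 1 Mb for a position. Some alternatives could not change a value, so this count overstates how far the values were put to a check. Division by the SD leaves positions and correlations between WT and KO matrices as they were. Omission of 130 to 140 Mb leaves the scores of the left part as they were, and omission of 110 to 120 Mb those of the right part. The mus ratio of the right part with the bins beyond 140 Mb, an alternative family added after seeing the data, ranged from 0.425 to 0.694. Omission of the weakest bins gave a cas ratio at the cas split of 1.06 and positions of 133.0 Mb (WT) and 132.7 Mb (KO). Without 110 to 120 Mb the cas positions were 132.8 and 133.0 Mb, and the mus contrast at the cas split was 0.549 (WT) and 2.06 (KO) times the cas contrast, itself below 0 there, whereas it was -0.203 and -0.277 times with all bins. That share was -0.115 in WT at 250 kb and -0.325 without 130 to 140 Mb. Without 120 to 130 Mb both cas positions were 132.7 Mb, and 46.9% of right bins were higher in KO on mus. Without 130 to 140 Mb, where few right bins remain, 46.7% of them were higher in KO on cas and their KO to WT ratio was 0.257. With classes by gene number 49.6% of right bins were higher in KO on cas. With pairs at least 5 Mb apart the KO to WT ratio of the cas contrast at the mus split was 0.165. WT and KO correlated at 0.875 on cas and 0.527 on mus at 250 kb. The cause of these changes was not tested. Positions that could not be candidates without a block were not computed. No paired analysis was possible because the replicates were combined before deposit. Depth is unknown, so no interval could be given.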
